A study of Mus musculus with 3 samples.

Results

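The genes described here encode enzymes that conjugate foreign or reactive molecules or clear aldehydes. They were taken by symbol from 7 enzyme families, which gave 104 of the 22609 gene symbols in the deposited table. The families are the soluble glutathione transferases of the alpha, kappa, mu, omega, pi and theta classes (Gst, 20 genes), the membrane-bound glutathione transferases (Mgst, 3 genes), the UDP-glucuronosyltransferases and their relatives (Ugt, 20 genes), the sulfotransferases (Sult, 18 genes), the flavin-containing monooxygenases (Fmo, 7 genes), the aldehyde dehydrogenases (Aldh, 20 genes) and the aldo-keto reductases of the Akr1 family (16 genes). All 104 Entrez numbers were found in the RefSeq gene table, where the entry listed as Akr1a4 carries the present symbol Akr1a1.

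Messenger RNA was sequenced from sorted epithelial cells of C57BL/6 mice, and the labels name no genetic change or treatment for any group. Cortical thymic epithelial cells (cTEC) were CD45-negative, EpCAM-positive, Ly51-positive and did not bind the lectin UEA1, and medullary thymic epithelial cells (mTEC) had the opposite Ly51 and UEA1 staining; both came from pooled thymi of 14 mice at postnatal day 7. Skin epithelial cells (skinEC) were EpCAM-positive, CD11c-negative epidermal cells from the trunk and back of 7 pooled newborn mice, so skinEC differ from the thymic populations in age and dissection as well as in tissue. Each population gave 1 library, so no difference has a replicate check and no test across samples was possible.

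Glutathione transferases, glucuronosyltransferases and sulfotransferases attach glutathione, glucuronic acid or sulfate to reactive or poorly soluble molecules, which can then be exported. Flavin-containing monooxygenases oxidise nitrogen- and sulfur-containing compounds, and aldehyde dehydrogenases and aldo-keto reductases oxidise or reduce aldehydes and ketones. Many members are known from the liver, gut, kidney and airway. Some have tasks in epithelia outside detoxification, such as making retinoic acid from retinaldehyde (Aldh1a genes) or cholesterol sulfate for the epidermal barrier (Sult2b1). Medullary thymic epithelium is known to transcribe genes that otherwise mark distant organs, which allows developing T cells to be screened against them.

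Levels are the authors' RPKM (reads scaled by gene length and sequencing depth). The size of the smallest RPKM steps gave about 56600000 mapped reads in cTEC, 55500000 in mTEC and 55900000 in skinEC, so 3 reads on a gene of 1 kb are worth 0.053, 0.054 and 0.0537 RPKM. The sorted populations carried their defining genes. The 8 cortical markers summed to 10362 RPKM in cTEC, 706 in mTEC and 67.9 in skinEC. The 7 medullary markers summed to 13.7, 2043 and 19.2 RPKM in the same order, and the 8 keratinocyte markers to 183, 1063 and 32105 RPKM. None of these 23 markers was listed at 0 in any library. Each was highest in its own population except the keratinocyte marker Lor, with 38.0 RPKM in mTEC and 30.3 in skinEC. Ccl25 alone gave 425 RPKM of the cortical sum in mTEC, and Trp63 gave 107 RPKM of the keratinocyte sum in cTEC.

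The enzyme genes took nearly the same share of the summed RPKM of each library, but different families supplied it. All 104 genes together, with every Ugt1a entry counted, summed to 1828 RPKM in cTEC, 1873 in mTEC and 2162 in skinEC, which was 0.395%, 0.395% and 0.363% of the library. The aldehyde dehydrogenases, with 766 RPKM in cTEC, 453 in mTEC and 677 in skinEC, were the largest family in cTEC and skinEC. The soluble glutathione transferases, with 458 RPKM in cTEC, 582 in mTEC and 502 in skinEC, were the largest family in mTEC. The smaller families had wider gaps between libraries. In bulk RNA such a gap can come from fewer cells of a type or less RNA per cell, which cannot be told apart. The Mgst genes summed to 36.7 RPKM in cTEC, 146 in mTEC and 274 in skinEC, the Sult genes to 7.07, 74.1 and 93.2 RPKM, and the Fmo genes to 151, 50.9 and 3.49 RPKM. A few genes supplied most of some sums. Fmo1 alone made up 94.8% of the Fmo sum in cTEC, and Akr1a4 made up 91.1%, 69.6% and 94.7% of the Akr1 sum in cTEC, mTEC and skinEC.

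**Figure D1:**
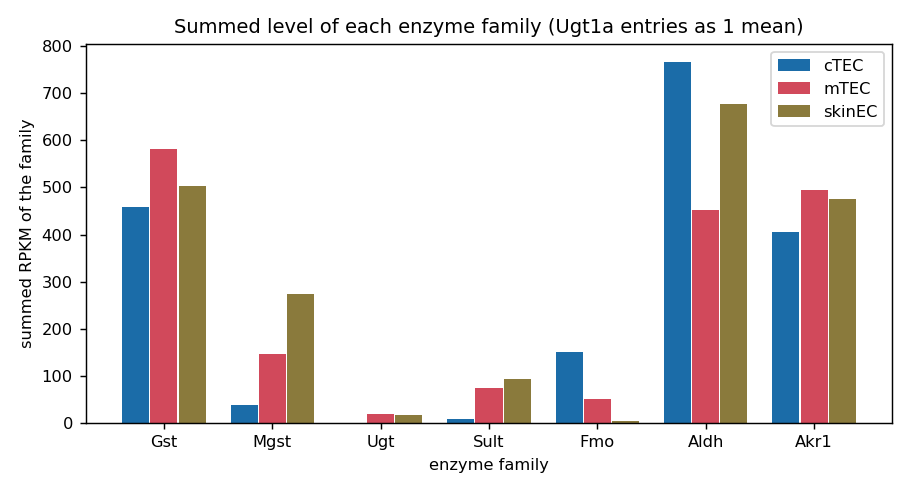
Summed RPKM of each enzyme family (vertical axis, linear from 0) in cTEC, mTEC and skinEC, with 1 bar per library and no error bar because each population has 1 library; the Ugt1a entries, which share reads, enter as 1 mean. The Aldh bar is tallest in cTEC (766 RPKM), the Mgst bar in skinEC (274 RPKM) and the Fmo bar in cTEC (151 RPKM).

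Between cTEC and mTEC the question is how cortical and medullary epithelium differ in these enzymes. Few members were far higher in cTEC, and these were aldehyde dehydrogenases of amino acid and folate metabolism and the monooxygenase gene Fmo1. Many more were far higher in mTEC, spread over every family. Higher and lower were called at a log2 ratio of at least 2 in size (4-fold), with 1 added to each RPKM value before the ratio was taken. By this rule 4 of the 104 members (3.85%) were higher in cTEC, beside 2.01% of all 22609 symbols. In the other direction 36 of 104 members (34.6%) were lower in cTEC, beside 11.4% of all symbols. Among the 16869 symbols that reached 1 RPKM in some library, 2.69% were higher and 15.2% lower, and the members called are the same 4 and 36 of the 77 that reached it. The 77 members that passed the filter had a median log2 ratio of -1.64, and the symbols that passed it had -0.08. The liver, gut and myeloid marker sets moved the same way, with summed levels of 3.79, 3.90 and 6.88 RPKM in cTEC, against 148, 303 and 824 RPKM in mTEC, and their part in the result was not tested. Of the 104 members, 23 (22.1%) reached 1 RPKM in mTEC alone and 1 (0.962%) in cTEC alone, beside 14.7% and 0.911% of all symbols.

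Against skinEC, the thymic populations differed from each other. In cTEC 10 of 104 members (9.62%) were higher than in skinEC and 18 (17.3%) were lower, beside 4.70% and 4.34% of all 22609 symbols. In mTEC 27 of 104 members (26%) were higher than in skinEC and 5 (4.81%) were lower, beside 12.5% and 3.13%. Among the 16869 symbols that reached 1 RPKM in some library, the shares were 6.3% higher and 5.82% lower for cTEC over skinEC, and 16.8% higher and 4.2% lower for mTEC over skinEC. The 8 Ugt1a entries count as 8 of the 18 lower in cTEC although they share most of their exons. Counted once, they leave 11 members lower in cTEC than in skinEC, and 29 lower in cTEC than in mTEC. The comparisons share libraries, so their counts are not independent of each other.

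**Figure D2:**
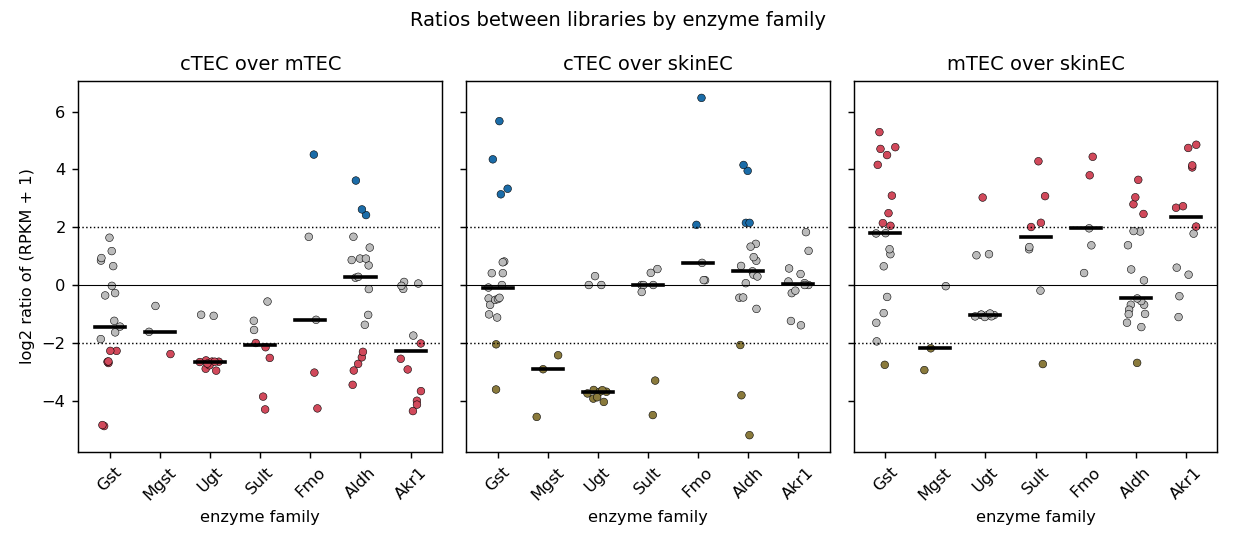
The log2 ratio of (RPKM + 1) between libraries (vertical axis) for the 77 members that reached 1 RPKM in some library, by enzyme family; each point is a gene, black bars are family medians, dotted lines mark 4-fold and coloured points lie past it (blue higher in cTEC, red higher in mTEC, olive higher in skinEC). In cTEC over mTEC the Aldh family has a median of 0.28 and the other families lie between -2.65 and -1.20. With no filter on low values Aldh has 0.27, and the other families lie between -1.62 (Mgst) and -0.38 (Fmo).

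Promoter windows were searched for the core of the antioxidant response element, through which the stress regulator Nrf2 acts on many transferase genes, because its target genes include several of these families. RefSeq windows on GRCm38.p6 (250 bases before to 50 after each start) were at hand for 86 of the 104 members, 99 windows in all. The core TGACNNNGC was found on either strand in 8 of the 99 windows (8.08%), and in 12.4% of all 32851 windows. The shorter core GCGTG of the xenobiotic response element was on either strand in 20.2% of the members' windows and 32.4% of all windows; the motifs were searched apart, and a window may hold both. Neither core was more common among the members. The 4 stretches below show 250 bases upstream of a start that holds the antioxidant core (in capitals), 5′ to 3′ along the gene's strand, for 2 genes highest in skinEC (Gstm5 and Mgst1) and 2 highest in mTEC (Gsta3 and Aldh1a2). They lie at chr3:107895604-107895853 (plus strand), chr6:138140277-138140526 (plus strand), chr1:21240335-21240584 (plus strand) and chr9:71215539-71215788 (plus strand). The core of Mgst1 reads on the opposite strand.
Gstm5: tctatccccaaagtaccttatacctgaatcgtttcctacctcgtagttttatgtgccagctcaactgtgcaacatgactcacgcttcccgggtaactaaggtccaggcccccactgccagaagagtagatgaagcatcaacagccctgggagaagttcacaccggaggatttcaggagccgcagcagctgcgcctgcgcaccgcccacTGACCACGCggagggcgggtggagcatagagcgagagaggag
Mgst1: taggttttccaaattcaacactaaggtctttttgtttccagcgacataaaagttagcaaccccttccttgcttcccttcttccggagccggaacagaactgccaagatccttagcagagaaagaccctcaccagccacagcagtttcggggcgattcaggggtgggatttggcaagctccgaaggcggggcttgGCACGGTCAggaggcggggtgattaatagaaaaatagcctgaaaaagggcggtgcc
Gsta3: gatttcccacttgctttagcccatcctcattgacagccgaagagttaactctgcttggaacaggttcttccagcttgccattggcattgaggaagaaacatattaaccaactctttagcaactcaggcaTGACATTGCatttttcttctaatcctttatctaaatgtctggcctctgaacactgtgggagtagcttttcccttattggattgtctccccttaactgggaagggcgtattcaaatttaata
Aldh1a2: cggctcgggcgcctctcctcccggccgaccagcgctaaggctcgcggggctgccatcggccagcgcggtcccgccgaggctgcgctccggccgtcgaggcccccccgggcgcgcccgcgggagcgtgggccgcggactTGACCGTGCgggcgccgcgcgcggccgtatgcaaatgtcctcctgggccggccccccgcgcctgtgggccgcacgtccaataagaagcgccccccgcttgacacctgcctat

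The 4 genes shown were picked from 8 with the core, so their levels cannot describe all 8. The 4 were at 23.7, 14.6, 1.47 and 0.0780 RPKM in cTEC and at 12, 24.8, 11.0 and 6.15 RPKM in mTEC. In skinEC they were at 49.0, 117, 0.408 and 0.0316 RPKM. Among members that reached 1 RPKM, the core was in 1 of 11 windows of genes highest in cTEC. For genes highest in mTEC it was in 5 of 42 windows, and for skinEC in 2 of 22. A match of letters is a description of the window and not a bound site. The regulators themselves were read as well. Nfe2l2, which encodes Nrf2, had 48.8 RPKM in cTEC, 27.9 in mTEC and 25.4 in skinEC, and Ahr, the receptor that binds the xenobiotic element, had 0.743, 1.91 and 64.1 RPKM. Keap1, which holds Nrf2 back, had 33.0 RPKM in cTEC, 23.7 in mTEC and 40.3 in skinEC. Of 12 regulator genes that reached 1 RPKM in some library, 0 were at least 4-fold higher and 1 lower in cTEC than in mTEC. Among the symbols that reached it the shares were 2.69% and 15.2%.

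The alpha class of glutathione transferases was mainly thymic in these libraries, with summed levels of 167 RPKM in cTEC, 132 in mTEC and 2.92 in skinEC. Gsta4, which conjugates the lipid peroxidation product hydroxynonenal, was the most abundant Gst gene of cTEC, at 165 RPKM in cTEC, 72.6 in mTEC and 2.26 in skinEC. It was 73.0-fold higher in cTEC and 32.1-fold higher in mTEC than in skinEC by RPKM. Gsta2, a detoxifying alpha enzyme, had 0.579 RPKM in cTEC, 45.5 in mTEC and 0.188 in skinEC, a log2 ratio of -4.88 for cTEC over mTEC. Its close copy Gsta1 is listed at 0 in cTEC, with 2.66 RPKM in mTEC and 0.0624 RPKM in skinEC, and reads of the pair may be split between them. Gsta3 had 1.47 RPKM in cTEC, 11.0 in mTEC and 0.408 in skinEC. So Gsta4 was high in both thymic libraries, and the other alpha genes were highest in mTEC.

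The theta class was also low in skin. Gstt1, Gstt2 and Gstt3, which act on small electrophiles, were at 9.93, 31.6 and 49.8 RPKM in cTEC, at 28.6, 40.9 and 31.3 RPKM in mTEC and at 0.0863, 0.601 and 4.77 RPKM in skinEC. Each was at least 4-fold higher in both thymic libraries than in skinEC and within 4-fold between the thymic libraries, with log2 ratios of cTEC over mTEC of -1.44, -0.36 and 0.65. Gstt4 had 0.0183 RPKM in cTEC, 1.4 in mTEC and 0.0186 in skinEC.

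The mu class divided by member. Gstm1, a major mouse mu enzyme, had 14.8 RPKM in cTEC, 102 in mTEC and 64.6 in skinEC. It was the most abundant Gst gene of mTEC, 6.87-fold higher there than in cTEC. Its log2 ratio of cTEC over skinEC, -2.05, lay at the edge of the rule and was -1.70 on the TPM scale. Gstm2 and Gstm5 had the reverse pattern, with their lowest values in mTEC. Gstm2 had 49.1 RPKM in cTEC, 15.1 in mTEC and 108 in skinEC, and Gstm5 had 23.7, 12 and 49.0 RPKM. Gstm3, Gstm6 and Gstm7 were mainly in mTEC. They had at most 1.1 RPKM in cTEC, where Gstm3 is listed at 0, then 27.8, 12.3 and 8.98 RPKM in mTEC and at most 2.0 RPKM in skinEC. Gstm4 varied least of the mu genes, between 4.95 and 11.5 RPKM. As mu genes resemble each other closely, reads may have been split between them.

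Among the other soluble transferases, the pi gene Gstp1 was even and the omega gene Gsto1 was not. Gstp1 had 75.3 RPKM in cTEC, 76.9 in mTEC and 103 in skinEC, and its close copy Gstp2 had 0.329 and 3.14 RPKM in the thymic libraries, listed at 0 in skinEC. Gsto1, whose product can reduce dehydroascorbate, had 10.5 RPKM in cTEC, 71.0 in mTEC and 140 in skinEC, where it was the most abundant Gst gene. The mitochondrial kappa gene Gstk1 was at 13.9, 7.33 and 19.6 RPKM, and Gsto2 stayed below 1 RPKM in all 3 libraries. In the whole Gst family, 0 of 20 genes passed 4-fold toward cTEC and 7 toward mTEC when these were compared, beside 2.01% and 11.4% of all symbols. Against skinEC, 4 were higher and 2 lower in cTEC, beside 4.70% and 4.34% of all symbols, and 9 were higher and 1 lower in mTEC, beside 12.5% and 3.13%. The 1 gene lower in mTEC than in skinEC is near the share of all symbols.

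All 3 membrane-bound glutathione transferase genes had their lowest level in cTEC. Mgst1, an enzyme of the endoplasmic reticulum and the outer mitochondrial membrane, had 14.6 RPKM in cTEC, 24.8 in mTEC and 117 in skinEC. Its log2 ratio of mTEC over skinEC was -2.19 on the deposited scale and -1.75 after median scaling, which no longer reaches the rule. Mgst2 had 0.630 RPKM in cTEC, 4.01 in mTEC and 37.6 in skinEC, a log2 ratio of -4.56 for cTEC over skinEC. Mgst3 had 21.5 RPKM in cTEC, 117 in mTEC and 120 in skinEC. It thus separated cTEC from both other libraries, while Mgst1 and Mgst2 separated skinEC from both thymic ones.

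**Figure D3:**
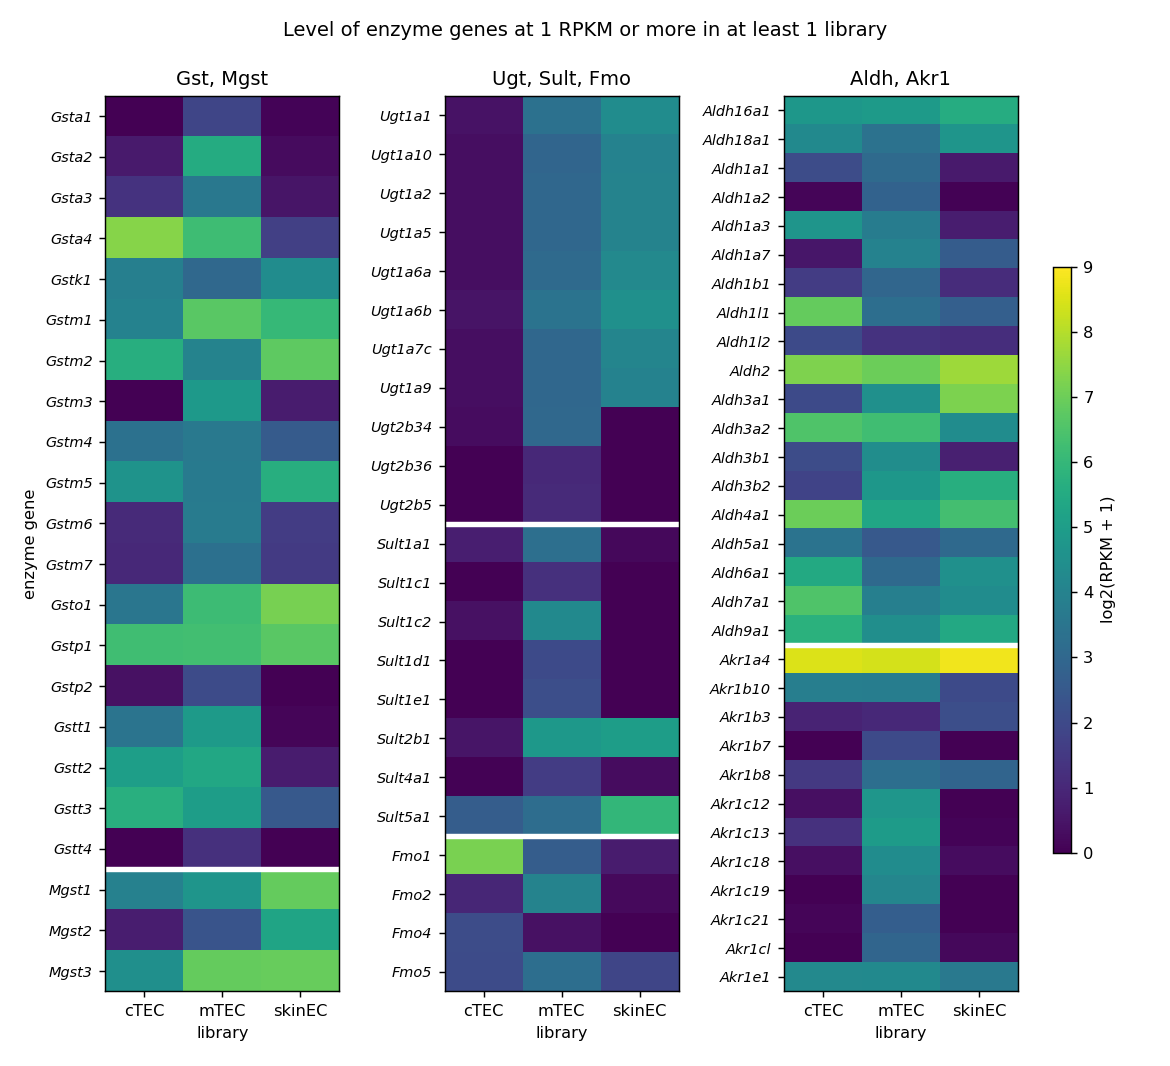
Level of 76 of the 77 members that reached 1 RPKM in some library, as log2(RPKM + 1) in colour, with genes in rows by family and cTEC, mTEC and skinEC in columns (1 library each). Ugt1a rows repeat each other, Gsta4, Fmo1 and Aldh1l1 are brightest in cTEC, and Mgst1, Sult5a1 and Aldh3a1 are brightest in skinEC.

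Glucuronosyltransferase RNA was nearly absent from cTEC. Mouse Ugt1a genes have their own first exons and share all later ones, so reads of the shared exons belong to no single entry, and the 8 entries are read here as 1 group. The 8 entries lay between 0.267 and 0.378 RPKM in cTEC, between 6.73 and 9.75 RPKM in mTEC and between 14.7 and 21.8 RPKM in skinEC. In RPKM, cTEC over mTEC was 0.0353 to 0.0397 and cTEC over skinEC was 0.0153 to 0.0183, so the group was lowest in cTEC and the entries kept nearly 1 ratio between libraries. Which first exon was used, and so whether the bilirubin enzyme Ugt1a1 or the phenol enzyme Ugt1a6a was made, cannot be told from these entries. The 12 Ugt2 and Ugt3 genes, known from liver, kidney and olfactory epithelium, were read almost only in mTEC. All 12 were above 0 in mTEC (0.0576 to 7.15 RPKM), 11 are listed at 0 in cTEC and 10 in skinEC. Ugt2b34 was the highest, with 0.238 RPKM in cTEC, 7.15 in mTEC and a listed 0 in skinEC, and only Ugt2b36 (1.04 RPKM) and Ugt2b5 (1.095 RPKM) also reached 1 RPKM. The hepatocyte marker sums given above had the same order for cTEC and mTEC, and their part was not tested.

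The sulfotransferases showed a skin gene, a gene shared by skin and medulla, and a group read in the medulla. Sult5a1 had 5.32 RPKM in cTEC, 8.39 in mTEC and 61.5 in skinEC, 11.6-fold lower in cTEC than in skinEC. Sult2b1, the cholesterol sulfotransferase of the epidermis, had 0.420 RPKM in cTEC, 27.1 in mTEC and 31.1 in skinEC. The level of Sult2b1 was within 2-fold between mTEC and skinEC, with a log2 ratio of -0.20, and low in cTEC, with a log2 ratio of -4.31 to mTEC and -4.50 to skinEC. Sult1c2 had 0.338 RPKM in cTEC, 18.5 in mTEC and a listed 0 in skinEC. The phenol sulfotransferase gene Sult1a1 had 0.696, 8.75 and 0.157 RPKM in the same order. Sult1d1 (3.02 RPKM), the oestrogen sulfotransferase gene Sult1e1 (3.45 RPKM) and Sult1c1 (1.36 RPKM) were read in mTEC and are listed at 0 in the other libraries. The 7 Sult2a genes, liver sulfotransferases of steroids and bile acids, are listed at 0 in both cTEC and skinEC. In mTEC 5 of them lay between 0.0187 and 0.093 RPKM, near the worth of 3 reads, and Sult2a2 and Sult2a7 are listed at 0, the only members at 0 in all 3 libraries. Sult4a1, a brain enzyme, had 0.0297 RPKM in cTEC, 2.03 in mTEC and 0.218 in skinEC, and Sult1b1, Sult3a1 and Sult6b1 stayed below 1 RPKM. Close copies among the Sult2a genes leave their separate values uncertain.

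The flavin-containing monooxygenases divided cortex and medulla by gene. Fmo1, which in mice acts on a broad range of drugs and amines, had 143 RPKM in cTEC, 5.32 in mTEC and 0.623 in skinEC. With a log2 ratio of 4.51 to mTEC and 6.48 to skinEC it had the largest ratio toward cTEC of any member in both comparisons. Fmo2, the main form of the lung in many mammals, had 0.975 RPKM in cTEC, 15.1 in mTEC and 0.161 in skinEC. Lower levels were read for others. Fmo4 had 3.23 RPKM in cTEC and 0.333 in mTEC, Fmo5 had 3.17, 8.60 and 2.71 RPKM in cTEC, mTEC and skinEC, Fmo6 had 0.378 and 0.790 RPKM in the thymic libraries, and Fmo9 had 0.0941 RPKM in mTEC only. In skinEC Fmo5 was the only one of the family at 1 RPKM or more.

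Among aldehyde dehydrogenases, enzymes of amino acid and folate metabolism gave the largest ratios of cTEC over mTEC. Aldh1l1, a cytosolic enzyme of folate metabolism, had 116 RPKM in cTEC, 8.56 in mTEC and 5.58 in skinEC, 13.6-fold and 20.8-fold higher in cTEC. Aldh7a1, which acts in lysine breakdown, had 90.4 RPKM in cTEC, 13.9 in mTEC and 19.6 in skinEC. Aldh6a1, which acts in valine breakdown, was at 43.7, 7.34 and 21.9 RPKM. These were the 3 of 20 Aldh genes at least 4-fold higher in cTEC than in mTEC, and 5 were at least 4-fold lower. Among all symbols 2.01% were higher and 11.4% lower. Aldh4a1, of proline breakdown, had 125 RPKM in cTEC, 38.6 in mTEC and 78.8 in skinEC, and Aldh9a1, of carnitine synthesis, had 52.6, 20.8 and 42.7 RPKM, both lowest in mTEC but within 4-fold. Aldh5a1, which clears succinic semialdehyde, and Aldh18a1, of proline synthesis, were also lowest in mTEC, at 4.67 and 9.56 RPKM. The mitochondrial folate enzyme Aldh1l2 was low throughout, between 1.25 and 3.02 RPKM, and Aldh8a1 stayed below 1 RPKM.

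Further genes of the family, most of them for enzymes that act on common or lipid aldehydes, had other patterns. Aldh2, the mitochondrial enzyme that clears acetaldehyde, led the family in all 3 libraries, at 151 RPKM in cTEC, 126 in mTEC and 203 in skinEC, all within 2-fold. Aldh16a1 was also within 2-fold, between 25.9 and 46.7 RPKM. Aldh3a1, abundant in the cornea, had 3.06 RPKM in cTEC, 22 in mTEC and 148 in skinEC, 48.3-fold lower in cTEC than in skinEC. Aldh3b2 had 2.53 RPKM in cTEC, 26.5 in mTEC and 48.7 in skinEC, and Aldh3b1 had 3.30, 20.3 and 0.713 RPKM. The fatty aldehyde dehydrogenase gene Aldh3a2 went the other way from Aldh3a1. It had 91.8 RPKM in cTEC, 75.2 in mTEC and 19.9 in skinEC, with a log2 ratio of mTEC over skinEC of 1.87 on the deposited scale and 2.18 on the TPM scale.

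The retinaldehyde dehydrogenases, which make retinoic acid, were read mainly in the thymic libraries, by different genes. Aldh1a3 had 24.6 RPKM in cTEC, 12.6 in mTEC and 0.658 in skinEC. Aldh1a2 had 0.0780 RPKM in cTEC, 6.15 in mTEC and 0.0316 in skinEC, and Aldh1a1 had 3.24, 7.69 and 0.581 RPKM. Aldh1a3 was therefore the main gene of the group in cTEC, while all 3 were above 6 RPKM in mTEC. Aldh1a7, a rodent relative of Aldh1a1 next to it in the genome and close enough in sequence for reads to be split, had 0.446 RPKM in cTEC, 14.8 in mTEC and 5.10 in skinEC. Aldh1b1, which also accepts retinaldehyde in mice, was at 2.04, 6.90 and 1.19 RPKM.

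Retinoid handling genes outside the families gave further contrasts between cortex and medulla. Of 19 such genes that reached 1 RPKM in some library, 2 were at least 4-fold higher in cTEC than in mTEC and 5 were lower, beside 2.69% and 15.2% of symbols. The higher ones included the retinaldehyde reductase gene Dhrs3 (110.4 RPKM in cTEC, 20.7 RPKM in mTEC, 26.4 RPKM in skinEC). The lower ones included Cyp26a1, which breaks down retinoic acid (57.9 RPKM in mTEC, listed at 0 in cTEC and skinEC), the binding protein gene Crabp1 (0.811 RPKM in cTEC, 71.1 RPKM in mTEC, 0.338 RPKM in skinEC) and the retinol uptake gene Stra6 (1.06, 59.5 and 0.815 RPKM). So mTEC held RNA for uptake, oxidation and breakdown steps. The receptor gene Rarg had 27.1 RPKM in cTEC, 12.1 in mTEC and 170 in skinEC.

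The Akr1 family held a common gene at high level and a block of genes read in the medulla. Akr1a4, the aldehyde reductase gene, was the most abundant member of all 104 in every library, at 370 RPKM in cTEC, 344 in mTEC and 450 in skinEC. Akr1c18, which inactivates progesterone, had 0.302 RPKM in cTEC, 19.9 in mTEC and 0.244 in skinEC. The close pair Akr1c12 and Akr1c13 had 0.301 and 1.43 RPKM in cTEC, against 25.8 and 30.0 RPKM in mTEC. In skinEC Akr1c13 had 0.0726 RPKM and Akr1c12 is listed at 0. Akr1c19 had 16.6 RPKM in mTEC and a listed 0 in both other libraries. Together the 8 Akr1c genes summed to 2.15 RPKM in cTEC, 99.1 in mTEC and 0.317 in skinEC. Akr1cl (6.58 RPKM in mTEC, 0.146 RPKM in skinEC) and Akr1d1, the liver bile acid reductase gene (0.721 RPKM in mTEC, 0.0133 RPKM in skinEC), were likewise highest in mTEC and listed at 0 in cTEC. Akr1b10 was higher in the thymic libraries, at 13.5 RPKM in cTEC, 13.0 in mTEC and 3.07 in skinEC, Akr1b8 was at 1.82, 8.47 and 6.40 RPKM, and the aldose reductase gene Akr1b3 was at 0.882, 1.07 and 3.46 RPKM. Akr1c21 (0.0877 RPKM in cTEC, 5.38 RPKM in mTEC) and Akr1b7 (3.06 RPKM in mTEC alone) had the mTEC pattern too, and Akr1c6, Akr1c14 and Akr1c20 stayed below 1 RPKM. Akr1e1 was even, between 11.6 and 18.1 RPKM.

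Many of these genes stand beside each other on the chromosomes, and neighbours did not always share a pattern. By the RefSeq gene order, 75 of the 104 members fell into 17 runs of neighbours with at most 2 other protein-coding genes between them. In the Fmo run, Fmo4 and its neighbour Fmo1 were highest in cTEC, and Fmo2 and Fmo6 in mTEC. In the run of 7 Gstm genes, Gstm5 and Gstm2 were highest in skinEC and the other 5 in mTEC. In the run of 8 Akr1c genes with Akr1e1 at its end, all were highest in mTEC, but Akr1e1 also had 17.7 RPKM in cTEC and 11.6 in skinEC. The run of 10 Ugt2 genes with Sult1b1, Sult1d1 and Sult1e1 was highest in mTEC throughout, with 5 of its 13 genes at 1 RPKM or more. Aldh3a1 and Aldh3a2, next to each other, were highest in skinEC and in cTEC.

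**Figure D4:**
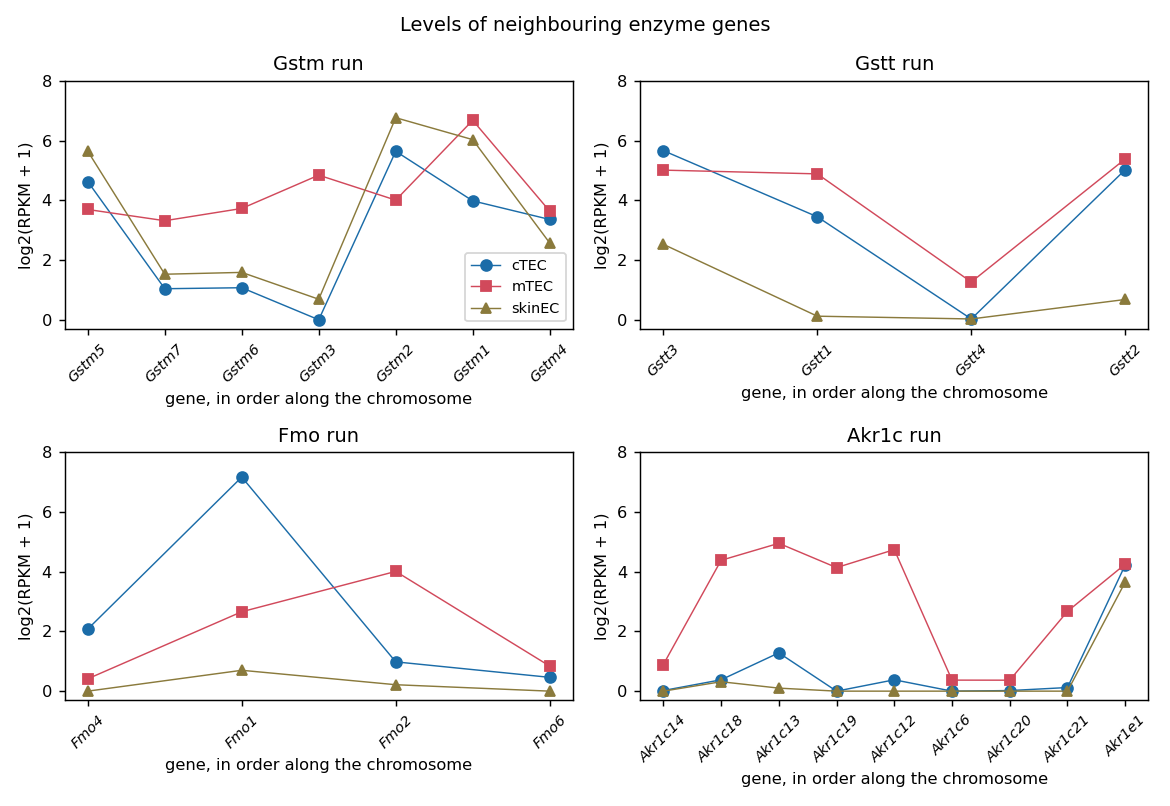
Levels of members in 4 runs of neighbours as log2(RPKM + 1) (vertical axis), with genes in RefSeq order along the chromosome (horizontal axis; lines only join points of a library) in cTEC (circles), mTEC (squares) and skinEC (triangles), 1 library each. Fmo1 stands out in cTEC and Fmo2 in mTEC, Gstm3 in mTEC lies above its values in the other libraries, and each Akr1c gene lies lower outside mTEC.

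The genes that handle the conjugated groups, by supply or removal, passed 4-fold about as often as other symbols. Papss1, which makes the sulfate donor, had 115 RPKM in cTEC, 81.3 in mTEC and 88.5 in skinEC, while its relative Papss2 was at 0.987, 26.1 and 1.01 RPKM. Ugdh, which makes UDP-glucuronic acid, had 98 RPKM in cTEC, 25.4 in mTEC and 49.5 in skinEC, so the donor enzyme was highest where Ugt1a RNA was lowest. Gusb, the lysosomal enzyme that removes glucuronic acid, had 11.9 RPKM in cTEC, 113 in mTEC and 10.1 in skinEC. The list for sulfate and glucuronic acid held 13 genes, Gusb and other removal enzymes among them. Of these 0 were at least 4-fold higher and 2, Papss2 and Gusb, were lower in cTEC than in mTEC. Among symbols 2.69% and 15.2% were, which is near these counts. Among 10 genes of glutathione supply, Slc7a11, the cystine carrier gene, had 0.994 RPKM in cTEC, 10.6 in mTEC and 0.153 in skinEC, and Ggt1, which splits extracellular glutathione, had 0.926, 6.79 and 0.407 RPKM. These were the only 2 of the 10 past 4-fold between cTEC and mTEC, again near the share of all symbols. The limiting enzyme of synthesis, Gclc, was at 12.3, 44.0 and 30.1 RPKM.

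The number of members read differed between libraries. At 1 RPKM or more there were 42 of 104 members in cTEC (40.4%), 76 in mTEC (73.1%) and 45 in skinEC (43.3%), beside 55.7%, 72.4% and 53.5% of all symbols. In mTEC the share was thus near that of all symbols, and in cTEC and skinEC it was below it. At 10 RPKM or more there were 25, 38 and 31 members (24%, 36.5% and 29.8%), beside 34.2%, 36.5% and 33.9% of all symbols. At 100 RPKM or more there were 6, 4 and 8 (5.77%, 3.85% and 7.69%), beside 3.41%, 3.08% and 4.41%. Every member but Sult2a2 and Sult2a7 was above 0 in mTEC, while 31 were listed at 0 in cTEC and 35 in skinEC. The members above 0 were 70.2% in cTEC, 98.1% in mTEC and 66.3% in skinEC, beside 77.9%, 92.7% and 74% of all symbols, so mTEC also had the largest share among all symbols.

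**Figure D5:**
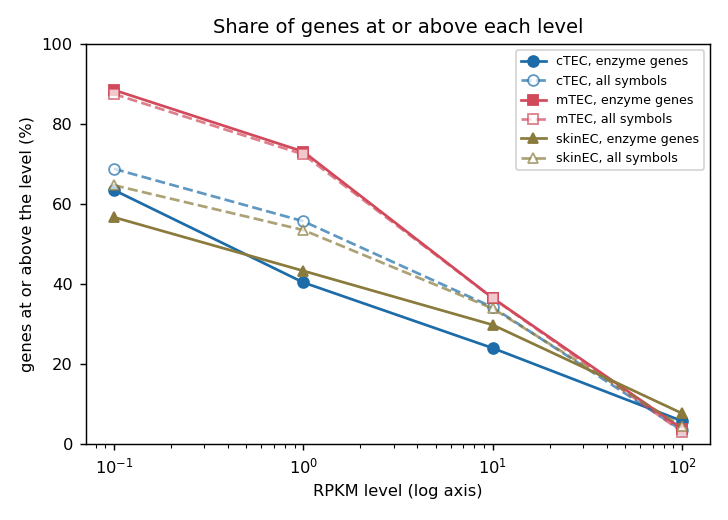
Share of genes at or above 0.1, 1, 10 and 100 RPKM (horizontal log axis) among the 104 members (solid lines, filled marks) and all 22609 symbols (dashed lines, open marks) in each library. At 1 RPKM the mTEC lines meet near 73%, and the solid lines of cTEC and skinEC lie at 40.4% and 43.3%, below their dashed lines.

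Marker sets of other tissues and cell types moved with the members that were higher in mTEC, and their part in the result was not tested. The 10 hepatocyte markers summed to 3.79 RPKM in cTEC, 148 in mTEC and 2.20 in skinEC; 1, 9 and 1 of them reached 1 RPKM, and Alb, Serpina1a and Tat are listed at 0 in both cTEC and skinEC. The 10 enterocyte markers summed to 3.90, 303 and 0.619 RPKM, with 1, 9 and 0 at 1 RPKM and Fabp2 at 0 in both cTEC and skinEC. For the 8 club cell markers the sums were 19.1, 149.6 and 15.3 RPKM (3, 8 and 2 at 1 RPKM, Nkx2-1 at 0 outside mTEC), and for the 7 olfactory sustentacular markers 225, 499 and 117 RPKM (2, 7 and 2 at 1 RPKM, Sec14l3 at 0 outside mTEC). The liver, gut and airway lists were thus broadly read in mTEC alone.

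The 10 tuft cell markers summed to 46.0 RPKM in cTEC, 1174 in mTEC and 213 in skinEC, with 8, 10 and 4 at 1 RPKM and Gfi1b at 0 in skinEC. Pou2f3 alone gave 182 RPKM of the skinEC sum. The 10 myeloid and dendritic markers, of a cell type the CD45 gate of the thymic sorts should remove, summed to 6.88, 824 and 8.76 RPKM, with 2, 9 and 4 at 1 RPKM and none listed at 0. Laptm5 (460 RPKM) and Lyz2 (283 RPKM) gave most of the mTEC sum. Hair follicle markers (0.222, 38.4 and 95.9 RPKM) and sebocyte markers (20.9, 80.6 and 118 RPKM) had their largest sums in skinEC. Fibroblast markers summed to 49.9, 120 and 376 RPKM, but Postn alone gave 342 RPKM of the skinEC sum, and 4 of the 8 markers were at least 4-fold higher and 1 lower in mTEC than in skinEC. Sums were smaller for thymocyte (15.3, 32.7 and 4.69 RPKM), endothelial (18.9, 31.6 and 0.654 RPKM) and melanocyte markers (6.75, 12.6 and 10.3 RPKM).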

How the data were processed

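The authors deposited 1 table of RPKM values per gene for the 3 libraries, per the file headers; other sheets of the workbook repeat these values or hold identifiers and were not used. Per the submitters' processing notes, CASAVA 1.8.2 and the build mm9 belong to the processing, with no role stated. For the aligner, annotation and strand no source used here gives a name, so genes with close copies and overlapping genes are uncertain.

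From these values the largest-sum row per symbol was kept (1 member, Sult1c1, had more than 1 row), and log2 ratios were computed with a pseudocount of 1 RPKM, which understates differences of low genes, in Python 3.11.15 with pandas 2.3.3. Genes that reached 1 RPKM in some library were called higher or lower at a log2 ratio of 2 or more in size. With 1 library per population no p-value was computed. A listed 0 can be a failed assignment, so no fold against it is given.

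Depth was found from the steps of low RPKM values, on coding lengths of 431 receptor genes from a later annotation, where 79.7% of values came out whole within 0.02 reads; the depths are estimates. The depth search and the calls were tested on simulated data.

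The enzyme genes, the marker and pathway lists and the rule for naming genes were chosen with earlier results of these data known. Named genes are the highest of each family in each library, up to 5 called genes per family, direction and comparison at 5 RPKM or more, all Mgst, Fmo and Aldh1a genes, those at 100 RPKM or more and those at 0 throughout, and the 3 genes with the largest ratios of each pathway list; further genes were named after their values were seen, and some that the rule names are not reported here. Promoter sequences and gene order are from RefSeq on GRCm38.p6, another build than that of the reads.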

Additional observations from a re-analysis of the deposited data

Results flagged for a closer look

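Aldh1a7, the rodent relative of Aldh1a1, lay on opposite sides of skinEC in the thymic libraries, by at least 2-fold each way. Its log2 ratio was -2.08 for cTEC over skinEC and 1.38 for mTEC over skinEC, with levels of 0.446 RPKM in cTEC, 14.8 in mTEC and 5.10 in skinEC. The difference was not tested, since each population has 1 library, and both ratios share the skinEC value. Its neighbour Aldh1a1, with a similar sequence, was at 3.24, 7.69 and 0.581 RPKM, so reads may have been split between them. The Aldh1a7 log2 ratio, cTEC over skinEC, was -1.84 on the TPM scale and -1.93 after median scaling, short of 4-fold.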

How the results depend on the processing

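Directions of the named genes past 4-fold did not reverse under any setting tried. With a pseudocount of 0.1 RPKM the median log2 ratio of members, cTEC over mTEC, became -2.81, the median log2 ratio of members, mTEC over skinEC, became 1.91, and 18 members were higher in cTEC than in skinEC. These 18 were 23.4% of the 77 members that passed the filter, beside 11.8% of all symbols that passed it. For cTEC over mTEC the median was -0.75 with no filter and -2.28 with a filter at 5 RPKM, by the genes each filter admits. Family medians shifted too. With no filter that of Ugt went from -2.65 to -1.05 and that of Sult from -2.08 to -0.39, while Mgst stayed at -1.62. A 2-fold rule gave 9 members higher in cTEC than in mTEC, 41 higher and 19 lower in mTEC than in skinEC. The 9 were 11.7% of the members that passed the filter, near the 10.9% of all symbols that passed it. In the other direction the shares were 63.6% and 30.8%. The 41 and 19 were 53.2% and 24.7% of these members, beside 34.0% and 16.7% of symbols. Members lower in cTEC than in skinEC numbered 10 without groups of close copies, and 11 with Ugt1a counted once, a setting chosen after seeing the data. These were 15.9% and 15.7% of the members that passed the filter, beside 5.82% of symbols that passed it. At 0.1 RPKM or more cTEC held 66 members (63.5%), beside 68.8% of all symbols. At 10 RPKM or more cTEC held 25 (24%) and mTEC 38 (36.5%), beside 34.2% and 36.5% of all symbols. The TPM scale moved the median log2 ratio of all symbols by 0.16 for cTEC over skinEC and 0.28 for mTEC over skinEC, and median scaling by -0.28 for cTEC over mTEC and 0.41 for mTEC over skinEC. Under both scalings, 3 named ratios near the rule lost the 4-fold call (Gstm1 and Aldh1a7 for cTEC over skinEC, Mgst1 for mTEC over skinEC) and 2 gained it (Fmo1 and Aldh3a2 for mTEC over skinEC). Values near 0.05 RPKM rest on few reads. No paired analysis was possible because each population has 1 library.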

Other observations

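Conjugating enzymes of other kinds and the efflux pumps were read as well. The arsenic methyltransferase gene As3mt had 27.0 RPKM in cTEC, 7.15 in mTEC and 2.56 in skinEC. Inmt had 11.1 RPKM in cTEC, 3.40 in mTEC and a listed 0 in skinEC. Both belong to a list of 12 methyl, acetyl and acyl transferases, of which 10 reached 1 RPKM in some library. Of these 10, 3, As3mt and Inmt among them, were at least 4-fold higher in cTEC than in skinEC, beside 6.3% of symbols. In the other direction 0 were called, beside 5.82%. Between cTEC and mTEC 0 of the 10 passed 4-fold, where 2.69% of symbols were higher and 15.2% lower. Their median log2 ratio of cTEC over mTEC was -0.54, beside -0.08 for symbols that reached 1 RPKM. The efflux list had calls toward mTEC, as the members did, with a median log2 ratio of cTEC over mTEC of -1.52. Abcc3 had 0.756 RPKM in cTEC, 19.9 in mTEC and 0.290 in skinEC, Abcb1a had 0.0426, 4.45 and 0.0108 RPKM and Abcc1 had 16.5, 70.9 and 42.4 RPKM, the 3 of 9 efflux genes at least 4-fold lower in cTEC than in mTEC, beside 15.2% of symbols. Abcc5 and Abcg2 had 17.3 and 7.81 RPKM in cTEC, against 11.6 and 4.58 RPKM in mTEC.

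Alcohol and carbonyl enzymes were split as well. Of 20 such genes, 1 was at least 4-fold higher and 5 were lower in cTEC than in mTEC, beside 2.69% and 15.2% of symbols. Nqo1, the quinone reductase gene, had 384 RPKM in cTEC, 19.4 in mTEC and 12.3 in skinEC. Hagh, the second enzyme of the glyoxalase pathway, had 48.9 RPKM in cTEC, 357 in mTEC and 54.1 in skinEC, while Glo1, the first, was at 32.2, 11.1 and 59.4 RPKM. The alcohol dehydrogenase gene Adh1 was at 2.03, 51.3 and 12.5 RPKM, and Adh7, which oxidises retinol, had a listed 0 in cTEC, 2.79 RPKM in mTEC and 24.5 in skinEC. Of 10 related transferase genes outside the families, 4 were at least 4-fold lower in cTEC than in mTEC, beside that 15.2%, among them Ltc4s, the leukotriene synthase gene (1.02 RPKM in cTEC, 78.3 RPKM in mTEC, 0.700 RPKM in skinEC), and Alox5ap (5.69, 211 and 3.31 RPKM), which is also on the tuft cell list.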
